A study of Mus musculus with 36 samples.

Results

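The vitamin biotin enters cells through the transporter encoded by Slc5a6, is released from degraded proteins by biotinidase (Btd), and is attached to its carboxylases by holocarboxylase synthetase (Hlcs). The 8 genes described here were this transporter, Btd, Hlcs and the subunits of the 3 biotin-dependent carboxylases of the mitochondrial matrix, which are pyruvate carboxylase (Pcx), propionyl-CoA carboxylase (Pcca and Pccb) and methylcrotonyl-CoA carboxylase (Mccc1 and Mccc2). They were taken by symbol from the 24421 genes counted in each library, and all 8 were present and passed the filter on low counts in every comparison. Slc5a6 was chosen by its difference between Fc(mML1)B3 and Fc under the HFD, so its values there, and in every comparison that uses those mice, are given as a description with no test. The other 7 genes were chosen by their known role in the pathway, at a time when results of these data were known. In the liver of mice given Fc(mML1)B3, the mean level of Slc5a6 RNA was 0.3502 times that of Fc mice in the HFD experiment and 1.46 times that of Fc mice in the standard diet experiment. Btd was higher by 1.30-fold with Fc(mML1)B3 in the HFD experiment, and none of the carboxylase subunits passed the test in either experiment.

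The livers came from male C57BL/6J mice bought at 7 weeks of age, acclimated for 1 week and kept for 12 weeks on CDAHFD, a high-fat diet that lacks choline and gives its protein as L-amino acids, which serves as a dietary model of steatohepatitis. In the first experiment the mice then received a high-fat diet (HFD) for 14 days with 2 weekly subcutaneous injections of either 4.3 mg/kg Fc (10 mice) or 5 mg/kg Fc(mML1)B3 (10 mice). In the second experiment they received a standard diet for 10 days with 3 injections of 4.3 mg/kg Fc (9 mice) or 5 mg/kg Fc(mML1)B3 (7 mice). Fc is the crystallizable fragment of human IgG1, and Fc(mML1)B3 is the same protein with a Met-binding macrocyclic peptide sequence inserted into a surface loop, which makes it an agonist of Met, the receptor of hepatocyte growth factor. No group of healthy mice was among the 36 libraries, all mice had carried the CDAHFD, and diet cannot be told apart from experiment, injection schedule and duration.

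Each mouse gave 1 library of 14949035 to 28466853 counts (median 23558194.5), and the standard diet Fc(mML1)B3 libraries, at 24772468 to 28466853, were deeper than most others. The deposited files carry running numbers, whose meaning the labels do not give and which are used here only as names of runs of libraries: the HFD Fc(mML1)B3 mice fall into numbers 26 to 29 (4 mice) and 30 to 35 (6 mice), and of the standard diet libraries 4 Fc and all 7 Fc(mML1)B3 have numbers above 100 while 5 Fc do not. Levels are given as CPM, counts scaled to a common library size by the trimmed mean of M-values (TMM), and calls are adjusted p below 0.05 from edgeR's quasi-likelihood test over all genes tested. In whole liver, fewer cells of one type and less RNA per cell cannot be told apart. All 7 hepatocyte markers were detected in all groups, with a summed level of 71225 to 146146 CPM over the HFD mice and 104498 to 135005 CPM over the standard diet mice.

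Biotin is a covalently bound coenzyme that carries carboxyl groups. Pyruvate carboxylase makes oxaloacetate, which feeds gluconeogenesis and refills the citric acid cycle, propionyl-CoA carboxylase starts the disposal of propionyl-CoA from odd-chain fatty acids and several amino acids, and methylcrotonyl-CoA carboxylase is a step of leucine breakdown. In the latter 2 enzymes the subunits Pcca and Mccc1 carry the biotin, and Pccb and Mccc2 hold the carboxyltransferase. The Slc5a6 protein, the sodium-dependent multivitamin transporter, also carries pantothenate, the precursor of coenzyme A, and lipoate. The acetyl-CoA carboxylases Acaca and Acacb, which control fatty acid synthesis and oxidation, also bind biotin and are described below as neighbours of the 8 genes.

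Slc5a6 lies on the minus strand of chromosome 5 (mm10, 31036036 to 31048924) and has 3889 exonic bases in the annotation used for counting. Its first exon faces that of Atraid, a gene on the plus strand (31048640 to 31054633) whose product takes part in retinoic acid-induced apoptosis and osteoblast differentiation. Reads were counted without strand, so bases that lie in exons of both genes cannot be assigned to either. The shared part was 5 bases, 0.129% of the Slc5a6 exons and 0.515% of the Atraid exons. For 2 RefSeq (GRCm38.p6) start sites of Slc5a6, windows from 250 bases before to 50 bases after each are printed. They are given because 177 bases of the first are also in the window of Atraid. Both start sites lie inside the gene as annotated for counting. Its outermost 5′ end, at 31048924, is in neither window, so the motif matches given here do not cover that start. The windows read 5′ to 3′ on the minus strand, with matches to the GC box GGGCGG on either strand in capitals, overlapping matches included.
Slc5a6 first start, chr5:31048513-31048812: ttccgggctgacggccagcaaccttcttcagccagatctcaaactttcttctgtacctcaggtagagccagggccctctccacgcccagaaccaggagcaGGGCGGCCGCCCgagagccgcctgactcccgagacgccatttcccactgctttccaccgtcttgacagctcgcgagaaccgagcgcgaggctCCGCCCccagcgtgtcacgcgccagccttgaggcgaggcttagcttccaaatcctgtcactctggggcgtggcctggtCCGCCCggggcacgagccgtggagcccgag
Slc5a6 second start, chr5:31048030-31048329: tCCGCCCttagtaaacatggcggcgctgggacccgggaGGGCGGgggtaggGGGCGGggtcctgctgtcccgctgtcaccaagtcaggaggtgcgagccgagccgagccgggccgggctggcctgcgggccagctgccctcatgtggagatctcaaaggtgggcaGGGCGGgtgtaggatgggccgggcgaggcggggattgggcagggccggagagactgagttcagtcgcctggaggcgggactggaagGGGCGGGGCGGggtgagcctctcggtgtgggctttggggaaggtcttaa
The first window held 4 matches and the second 6, and the GC box is common, with a match in 35.7% of all 32851 RefSeq windows of this length. Neither window held the E-box CACGTG (in 7.15% of all windows), the D-box TTANGTAA (2.32%) or the ROR element core TAGGTCA (2.61%). Among the other members, the first Pcx window and the Mccc2 window each held 1 CACGTG.

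**Figure D1:**
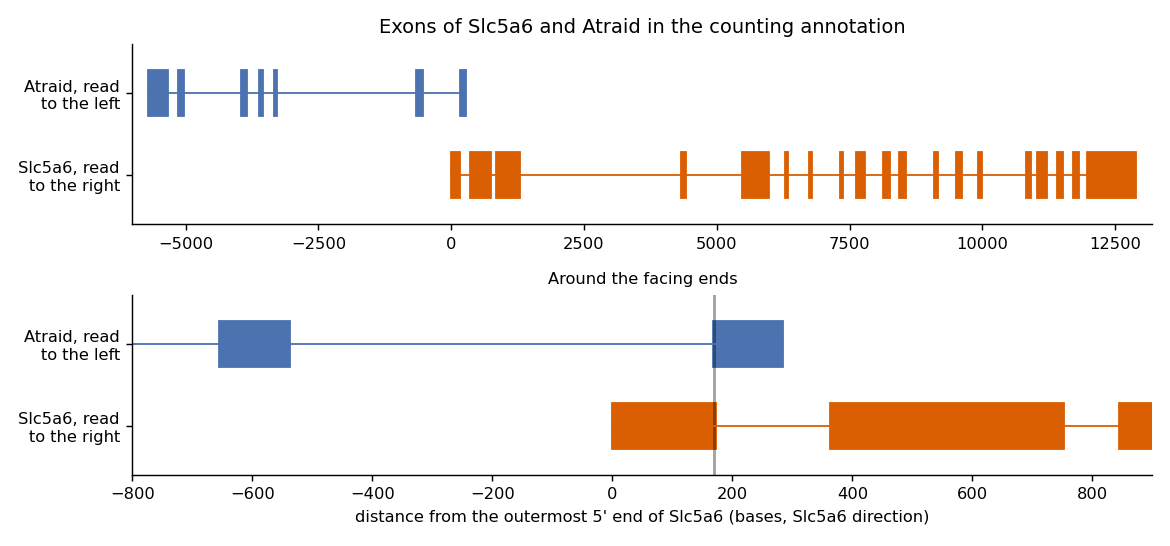
Exons (boxes) of Slc5a6 and Atraid, plotted against the distance in bases from the outermost 5′ end of Slc5a6 in its direction of transcription. The upper panel shows both genes whole and the lower panel the facing ends, where the grey band marks the 5 shared exonic bases.

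Under the HFD, Slc5a6 in the 10 Fc mice ranged from 21.1 to 36.1 CPM with a median of 28.4, resting on 428 to 924 counts. In the 10 Fc(mML1)B3 mice it ranged from 7.42 to 14.6 CPM with a median of 9.76, resting on 100 to 334 counts. Every Fc(mML1)B3 mouse was below every Fc mouse, and the groups were separate in this way for 0.910% of the 13299 genes tested. The Fc mean was 29.03 ± 4.58 CPM (n = 10, SD) against 10.2 ± 2.44 CPM (n = 10, SD) with Fc(mML1)B3, or -1.50 (SE 0.12) on the log2 scale. The Fc(mML1)B3 mice numbered 26 to 29 stood at 11.6 ± 3.11 CPM (n = 4, SD) and those numbered 30 to 35 at 9.20 ± 1.46 CPM (n = 6, SD), so both runs were below the lowest Fc mouse. As this difference chose the gene, it is a description.

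Under the standard diet the order was the opposite. The 9 Fc mice ranged from 11.6 to 21.99 CPM with a median of 18.4, and the 7 Fc(mML1)B3 mice from 21.7 to 29.8 CPM with a median of 25.0. All 7 Fc(mML1)B3 mice were above the Fc median and 6 of 7 were above every Fc mouse. The means were 17.8 ± 3.52 CPM (n = 9, SD) and 26.03 ± 3.51 CPM (n = 7, SD). The gene was chosen by its HFD difference, but earlier results of these data were known then, so independence of this test is not established. Slc5a6 rose with Fc(mML1)B3 by 0.54 on the log2 scale (SE 0.11, adjusted p = 0.0024), a larger difference than the spread between mice. A 2-sided exact permutation test over the mice gave p = 0.000524, the smallest p of 15 such tests of single members. Within the libraries numbered above 100 the 4 Fc mice stood at 19.8 ± 3.23 CPM (n = 4, SD), and the difference from the 7 Fc(mML1)B3 mice was 0.39 (SE 0.11) with an adjusted p of 0.0563 that misses the threshold. The 5 Fc mice numbered lower stood at 16.2 ± 3.07 CPM (n = 5, SD), and the part of the library run in the pooled difference was not tested further.

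**Figure D2:**
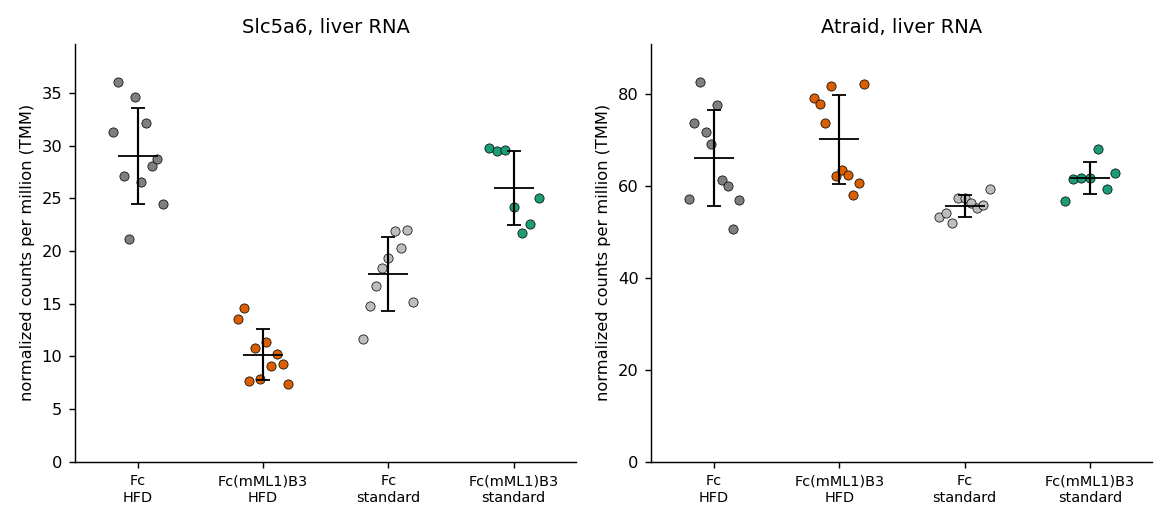
TMM-scaled CPM of Slc5a6 (left) and Atraid (right) in each of the 36 mice (points), with the mean and SD of each group (bars), on linear axes from 0. Slc5a6 means are 29.03, 10.2, 17.8 and 26.03 CPM from left to right, and the 2 HFD groups do not overlap, whereas the Atraid groups of the HFD do.

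Across the 4 groups, Slc5a6 was highest in the HFD Fc mice and the standard diet Fc(mML1)B3 mice, whose ranges overlapped, followed by the standard diet Fc mice and the HFD Fc(mML1)B3 mice, whose ranges overlapped at their edges. Between diets, Slc5a6 differed by -0.71 (SE 0.11) on the log2 scale in Fc mice, standard diet against HFD, and 7 of 9 standard diet mice were below every HFD mouse. In Fc(mML1)B3 mice the same difference was 1.33 (SE 0.13), and all 7 standard diet mice were above every HFD mouse. The effect of Fc(mML1)B3 under the standard diet exceeded that under the HFD by 2.06 (SE 0.18). All 3 values contain the mice that chose the gene and carry no test.

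Atraid did not follow Slc5a6 under the HFD. Its level was 66.1 ± 10.4 CPM (n = 10, SD) in Fc mice and 70.1 ± 9.63 CPM (n = 10, SD) in Fc(mML1)B3 mice, a log2 fold change of 0.10 (SE 0.10, adjusted p = 0.536) with 2 SE on either side from -0.10 to 0.29, and it was 0.27 for the mice numbered 26 to 29 and -0.02 for those numbered 30 to 35. In the other experiment Atraid rose from 55.6 ± 2.31 CPM (n = 9, SD) to 61.7 ± 3.46 CPM (n = 7, SD), by 0.15 (SE 0.04, adjusted p = 0.0199), and 6 of 7 Fc(mML1)B3 mice were above every Fc mouse. That call was lost without Fc(mML1)B3 mouse 5 (0.12, adjusted p = 0.0505), with library totals alone (0.11, adjusted p = 0.0986), in 1 fit over all 4 groups (0.15, SE 0.08, adjusted p = 0.342) and within the libraries numbered above 100 (0.12, adjusted p = 0.183), so the estimate stayed between 0.11 and 0.15 in these settings. The correlation of Slc5a6 and Atraid across the 36 libraries, after subtracting group means, was 0.06.

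Btd (chromosome 14, 31641057 to 31668197, plus strand) encodes the enzyme that frees biotin from biocytin so that it can be used again. It was the only one of the 7 other members called under the HFD, where 14.8% of the 13299 genes tested were called in either direction. In Fc mice it ranged from 37.3 to 68.7 CPM with a median of 52.8, and in Fc(mML1)B3 mice from 55.0 to 76.0 CPM with a median of 70.4. All 10 Fc(mML1)B3 mice were above the Fc median and 5 of 10 were above every Fc mouse, so the groups overlapped. Btd rose from 53.7 ± 9.71 CPM (n = 10, SD) to 69.1 ± 6.80 CPM (n = 10, SD), by 0.38 on the log2 scale (SE 0.09, adjusted p = 0.00929). A 2-sided permutation test with 100000 resamples gave p = 0.00066. The size was alike in both runs of Fc(mML1)B3 mice, 69.5 ± 5.94 CPM (n = 4, SD) and 68.8 ± 7.86 CPM (n = 6, SD), while the adjusted p against all Fc mice was 0.0762 for the first run and 0.0486 for the second.

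In standard diet mice Btd was 54.5 ± 4.94 CPM (n = 9, SD) in Fc mice and 54.2 ± 2.05 CPM (n = 7, SD) in Fc(mML1)B3 mice, a difference of -0.01 (SE 0.05, adjusted p = 0.918) with 2 SE on either side from -0.12 to 0.10. The 2 experiments differed in the response of Btd to Fc(mML1)B3, by -0.37 (SE 0.12, adjusted p = 0.0373), in a test that called 9.06% of 14105 genes, and with the mouse number as a block it was -0.39 (adjusted p = 0.0619). None of the other 6 tested members was called in it, with differences from -0.09 (Pccb) to 0.22 (Hlcs). Its level in the Fc mice of both experiments was alike, 53.7 and 54.5 CPM, so the HFD Fc(mML1)B3 mice were the group that stood apart.

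Hlcs (chromosome 16, 94129306 to 94287856, minus strand), the enzyme that joins biotin to the carboxylases, was 17.7 ± 2.38 CPM (n = 10, SD) in HFD Fc mice and 15.03 ± 2.402 CPM (n = 10, SD) in HFD Fc(mML1)B3 mice. The log2 fold change of -0.22 (SE 0.10, adjusted p = 0.130) was not called, and 8 of 10 Fc(mML1)B3 mice were below the Fc median. It passed only with library totals alone as the scaling (-0.31, adjusted p = 0.0291), under which the median of all genes moved by -0.10. The 2 runs of Fc(mML1)B3 mice differed, with -0.06 (SE 0.12, adjusted p = 0.768) for numbers 26 to 29 and -0.33 (SE 0.11, adjusted p = 0.0557) for numbers 30 to 35. The standard diet means were 17.3 ± 2.59 CPM (n = 9, SD) and 17.1 ± 2.00 CPM (n = 7, SD), a difference of -0.01 (adjusted p = 0.939) with 2 SE on either side from -0.20 to 0.17.

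**Figure D3:**
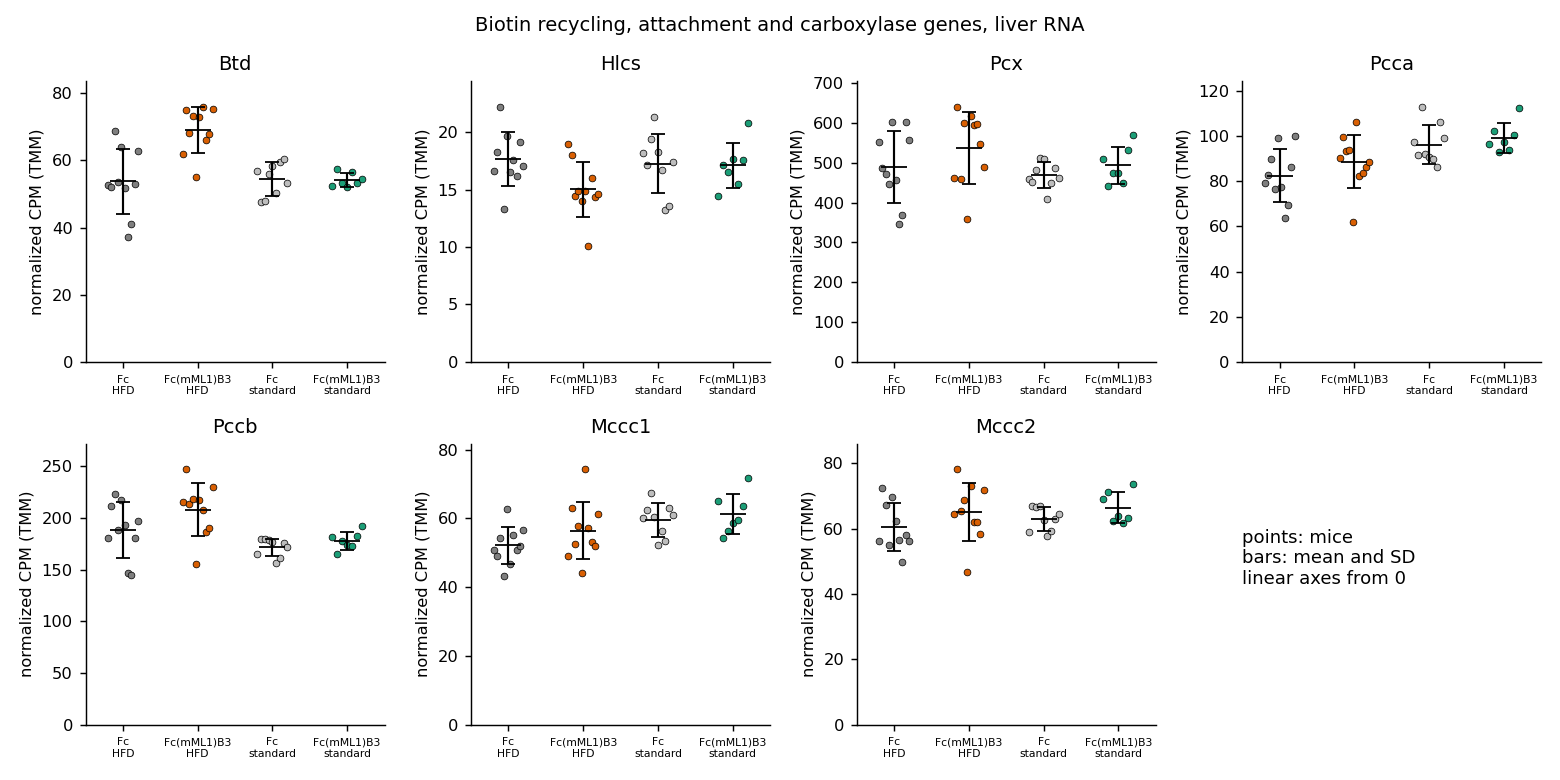
TMM-scaled CPM of the 7 other members in each mouse (points), with the mean and SD of each group (bars), on linear axes from 0 that differ between panels. Btd is higher in the HFD Fc(mML1)B3 mice, at a mean of 69.1 CPM, than in the other 3 groups, at 53.7 to 54.5 CPM, and the panels of the carboxylase subunits overlap between the groups of each diet.

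The carboxylase subunits lie on chromosomes 19 (Pcx), 14 (Pcca), 9 (Pccb), 3 (Mccc1) and 13 (Mccc2). All 5 were left uncalled by edgeR in either treatment comparison, where 0 of 5 had an unadjusted p under 0.05 and DESeq2 and limma-voom called 0. Pcx, the largest contributor of RNA among them, was 489 ± 89.7 CPM (n = 10, SD) in HFD Fc mice and 537 ± 90.5 CPM (n = 10, SD) in HFD Fc(mML1)B3 mice and differed by 0.15 (SE 0.11, adjusted p = 0.396). Pccb differed by 0.16 (SE 0.09, adjusted p = 0.262), Mccc1 by 0.13 (SE 0.08, adjusted p = 0.310), Mccc2 by 0.12 (SE 0.09, adjusted p = 0.368) and Pcca by 0.12 (SE 0.09, adjusted p = 0.398). All 5 estimates were above 0 under the HFD, and the widest interval of 2 SE, that of Pcx, ran from -0.08 to 0.38. The estimates moved with the run of Fc(mML1)B3 mice: for numbers 26 to 29 and 30 to 35 they were 0.28 and 0.08 for Pccb, 0.23 and 0.05 for Pcca, and 0.23 and 0.05 for Mccc2, while Pcx had 0.18 and 0.14 and Mccc1 0.12 and 0.14. None was called in either run. Part of the exons of Mccc1, 198 bases or 6.64%, is shared with the opposite-strand gene Mccc1os.

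In standard diet mice the subunit estimates were smaller and tighter. Pcx was 469 ± 32.5 CPM (n = 9, SD) in Fc mice and 494 ± 46.5 CPM (n = 7, SD) in Fc(mML1)B3 mice, a difference of 0.07 (SE 0.06, adjusted p = 0.456). The others differed by 0.04 (Mccc1 and Pcca), 0.05 (Pccb) and 0.08 (Mccc2), with adjusted p between 0.317 and 0.721. Within the libraries numbered above 100 the 5 subunits differed by 0.06 (Pcca) to 0.12 (Pcx), none called, and Hlcs by 0.17 (adjusted p = 0.366). Slc5a6 was therefore the 1 of 8 members called under the standard diet, where 16.1% of 13570 genes were called, and no member had groups that did not overlap, against 2.93% of all genes tested.

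**Figure D4:**
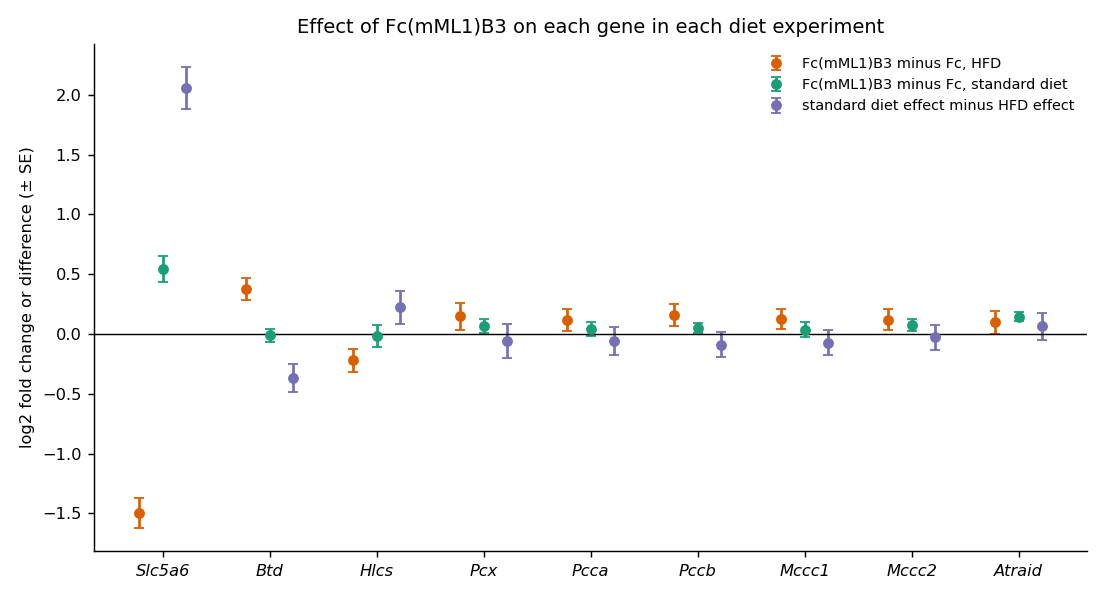
Log2 fold changes of Fc(mML1)B3 against Fc under the HFD (orange) and the standard diet (green), and the difference between them (violet), for the 8 members and Atraid, with bars of 1 SE. Slc5a6 has -1.50 in the HFD and 0.54 in the standard diet experiment, Btd has 0.38 and -0.01, and the 5 carboxylase subunits lie between 0.04 and 0.16 in both.

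Between the diets, a few members of the carboxylases differed by small amounts. In Fc mice, Pcca was higher under the standard diet by 0.22 (SE 0.08, adjusted p = 0.0246), at 96.2 ± 8.68 CPM (n = 9, SD) against 82.4 ± 11.8 CPM (n = 10, SD). Mccc1 was higher by 0.19 (SE 0.06, adjusted p = 0.0188), at 59.5 ± 4.84 CPM (n = 9, SD) against 52.1 ± 5.43 CPM (n = 10, SD). These 2 calls of 7 members stand beside 49.0% of all 13506 genes tested. Both calls were lost with upper-quartile scaling (0.13 for Pcca and 0.10 for Mccc1) and with library totals alone (0.15 and 0.11). Pccb was called lower instead in these settings (-0.23 and -0.21). The scaling thus changed which of Pcca, Mccc1 and Pccb were called but not their direction. All 9 standard diet mice were above the HFD median for Pcca and Mccc1 and below it for Pccb. Cell type markers moved in the same comparison, in which 4 of 7 stellate and myofibroblast, 2 of 6 macrophage, 3 of 5 cholangiocyte, 4 of 5 T and B cell and 1 of 3 neutrophil markers were called lower and 2 of 7 hepatocyte and 1 of 5 endothelial markers higher. Their part in the differences of Pcca and Mccc1 was not tested.

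In Fc(mML1)B3 mice, 2 of the 7 members were called lower under the standard diet than under the HFD, against 38.2% of 13627 genes called in either direction. Btd differed by -0.37 (SE 0.06, adjusted p = 0.000148), with 5 of 7 standard diet mice below every HFD mouse. Pccb differed by -0.24 (SE 0.08, adjusted p = 0.0174), at 178 ± 8.64 CPM (n = 7, SD) against 208 ± 25.6 CPM (n = 10, SD). Both calls held in each of 17 fits without 1 mouse and in 7 of 7 other settings. Of the markers, 4 of 7 stellate and myofibroblast, 2 of 6 macrophage, 2 of 5 cholangiocyte and 1 of 3 neutrophil markers were called lower and 1 of 7 hepatocyte, 1 of 5 endothelial and 1 of 3 neutrophil markers higher, and their part in the differences of Btd and Pccb was not tested. The comparisons share mice with the treatment comparisons and are not independent of them.

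Per length of exon, the members spanned a wide range. In TPM, which are counts divided by exon length and scaled to the same sum in every library, the HFD Fc mice had 220 ± 48.1 TPM (n = 10, SD) of Pcx, 156 ± 17.7 of Pccb, 60.5 ± 9.05 of Pcca, 54.2 ± 4.68 of Mccc2, 52.7 ± 8.19 of Btd and 33.5 ± 3.78 of Mccc1. Pcca, Mccc2 and Btd were neighbours in this order that did not differ beyond their spread. Slc5a6 at 14.3 ± 2.34 TPM (n = 10, SD) and Hlcs at 6.98 ± 0.783 TPM (n = 10, SD) were lowest. In the HFD Fc(mML1)B3 mice Slc5a6 was at 4.67 ± 0.979 TPM (n = 10, SD), below or within the spread of Hlcs at 5.58 ± 0.916 TPM (n = 10, SD). In both enzymes with unlike subunits the levels per length were unequal, with Pccb above Pcca and Mccc2 above Mccc1 in all 4 groups. The biotin-carrying subunit was thus the lower of each pair, at 60.5 to 70.8 TPM for Pcca against 143.2 to 162 TPM for Pccb, and at 33.5 to 38.3 TPM for Mccc1 against 54.2 to 57.7 TPM for Mccc2.

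The acetyl-CoA carboxylases, the biotin enzymes outside the mitochondrial matrix, were measured in the same libraries. Acaca ranged from 52.4 to 163 CPM in HFD Fc mice and from 73.8 to 107 CPM in HFD Fc(mML1)B3 mice and was not called (-0.09, SE 0.17, adjusted p = 0.749). In standard diet mice Acaca rose from 128 ± 6.24 CPM (n = 9, SD) to 154 ± 17.9 CPM (n = 7, SD), by 0.26 (SE 0.06, adjusted p = 0.00504), a call lost in 1 fit over all 4 groups and within the libraries numbered above 100, where the estimates for Acaca were 0.27 (adjusted p = 0.356) and 0.24 (adjusted p = 0.0946). Acacb was 75.0 ± 47.7 CPM (n = 10, SD) in HFD Fc mice and 49.6 ± 10.5 CPM (n = 10, SD) in HFD Fc(mML1)B3 mice (-0.58, SE 0.29, adjusted p = 0.187). Its standard diet difference was 0.41 (SE 0.16, adjusted p = 0.0839), and without Fc(mML1)B3 mouse 1 it was 0.55 (adjusted p = 0.000282), the 1 of 16 fits without a mouse in which Acacb was called. The response did not pass the test of a difference between the experiments for Acaca (0.37, adjusted p = 0.296) or Acacb (1.01, adjusted p = 0.0901).

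Genes of the pathways that use biotin, pantothenate or lipoate were counted in lists chosen by function. The counts of calls stand beside shares of all genes tested, in either direction, of 14.8% in the HFD and 16.1% in the standard diet comparison, and beside 1083 genes higher and 889 lower of 13299 and 1162 higher and 1024 lower of 13570. Of 8 genes that dispose of propionyl-CoA, 1 was called higher under the HFD (list median 0.07, against -0.01 for all genes tested) and 3 under the standard diet (median 0.12, against -0.01), so the HFD count was near the share of all genes. Mmaa, which protects methylmalonyl-CoA mutase and its cobalamin, was the gene called in both: it rose by 0.30 (SE 0.09, adjusted p = 0.0310) and 0.31 (SE 0.06, adjusted p = 0.00219). The first of these was lost in 5 of 20 fits without 1 mouse, those without HFD Fc mouse 1, 6, 8 or 9 or HFD Fc(mML1)B3 mouse 10. The other 2 called under the standard diet were Mcee, the methylmalonyl-CoA epimerase (0.19), and Mmadhc, a cobalamin chaperone (0.15, lost without Fc(mML1)B3 mouse 3). Of 8 other settings under the standard diet, the call was kept in 7 for Mmaa, 4 for Mcee and 5 for Mmadhc. The HFD call of Mmaa was kept in 6 of 9.

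Of 10 tested genes of leucine breakdown, 1 was called lower under the HFD (list median 0.10) and 1 lower and 2 higher under the standard diet (list median 0.09). The HFD count was thus not above the share of all genes with edgeR, and DESeq2 called 2 and limma-voom 4 of the 10 there, against 3 by each under the standard diet. Ppm1k, the phosphatase that activates the branched-chain ketoacid dehydrogenase, was the gene lower in both. It fell from 77.9 ± 15.03 CPM (n = 10, SD) to 52.9 ± 8.62 CPM (n = 10, SD) under the HFD (-0.55, SE 0.11, adjusted p = 0.00188). In standard diet mice it fell from 91.3 ± 12.2 CPM (n = 9, SD) to 70.3 ± 12.1 CPM (n = 7, SD) (-0.38, SE 0.10, adjusted p = 0.0123). That call was kept in 5 of 8 other settings, and the HFD call in 8 of 9. Bckdhb, a subunit of that dehydrogenase, rose by 0.21 and Auh, the methylglutaconyl-CoA hydratase downstream of the Mccc enzyme, by 0.23 under the standard diet. Each of these calls was kept in 6 of 8 other settings. Bcat1 did not pass the filter on low counts.

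Of the 9 partners of Pcx around pyruvate and oxaloacetate, 0 were called under the HFD by edgeR (list median 0.08, with 3 at an unadjusted p under 0.05, 0 by DESeq2 and 2 by limma-voom) and 4 of 9 were called higher under the standard diet (list median 0.12), where 1162 of all 13570 genes tested were. These 4 were Mpc1, a subunit of the mitochondrial pyruvate carrier (0.18), the malate dehydrogenases Mdh1 (0.13) and Mdh2 (0.24), and Got1, the cytosolic aspartate aminotransferase (0.42). Mdh1 passed narrowly (adjusted p = 0.0479) and kept the call in 4 of 16 fits without 1 mouse. Of 8 other settings, the call was kept in 6 for Mpc1, 6 for Got1, 7 for Mdh2 and 2 for Mdh1. Of the exons of Mpc1, 11.7% are shared with an opposite-strand gene.

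For the other cargoes of the Slc5a6 protein, 11 genes from pantothenate to coenzyme A gave 1 called higher and 1 called lower under the HFD (list median 0.02) and 1 called higher under the standard diet (list median 0.06). Under the HFD, Aasdhppt, which attaches phosphopantetheine to proteins, rose by 0.32 (adjusted p = 0.00978) and Pank1, a pantothenate kinase, fell by 0.30 on the log2 scale (adjusted p = 0.0429), a call kept in only 3 of 20 fits without 1 mouse. Under the standard diet Ppcs, the next enzyme after pantothenate kinase, rose by 0.21 (adjusted p = 0.0250), a call lost without Fc mouse 1 or Fc(mML1)B3 mouse 7. The Ppcs call was kept in 5 of 8 other settings. Of 6 lipoate genes, 0 were called under the HFD by edgeR (list median 0.04, with 1 at an unadjusted p under 0.05, and 0 by DESeq2 and limma-voom). Under the standard diet 2, the lipoyl proteins Dlst (0.15) and Gcsh (0.17), were called higher (list median 0.15). The Dlst call was kept in 6 of 16 fits without 1 mouse. Of 8 other settings, the call was kept in 4 for Dlst and 6 for Gcsh.

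Among 9 tested transporters of other water-soluble vitamins, Slc23a2, a sodium-dependent vitamin C transporter, was called lower in both comparisons. In HFD mice it fell from 24.3 ± 5.40 CPM (n = 10, SD) to 14.6 ± 2.54 CPM (n = 10, SD), by 0.71 on the log2 scale (SE 0.11, adjusted p = 0.000156). In standard diet mice it fell from 29.7 ± 2.12 CPM (n = 9, SD) to 23.5 ± 1.21 CPM (n = 7, SD), by 0.34 (SE 0.05, adjusted p = 0.000107). Slc19a2, a thiamine transporter, was called lower under the standard diet (-0.32, adjusted p = 0.0161), a call kept in 6 of 8 other settings. No transporter of this list was called higher, while Slc5a6 was higher under the standard diet. The list medians were -0.01 and 0.07, and Slc19a3 did not pass the filter on low counts.

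**Figure D5:**
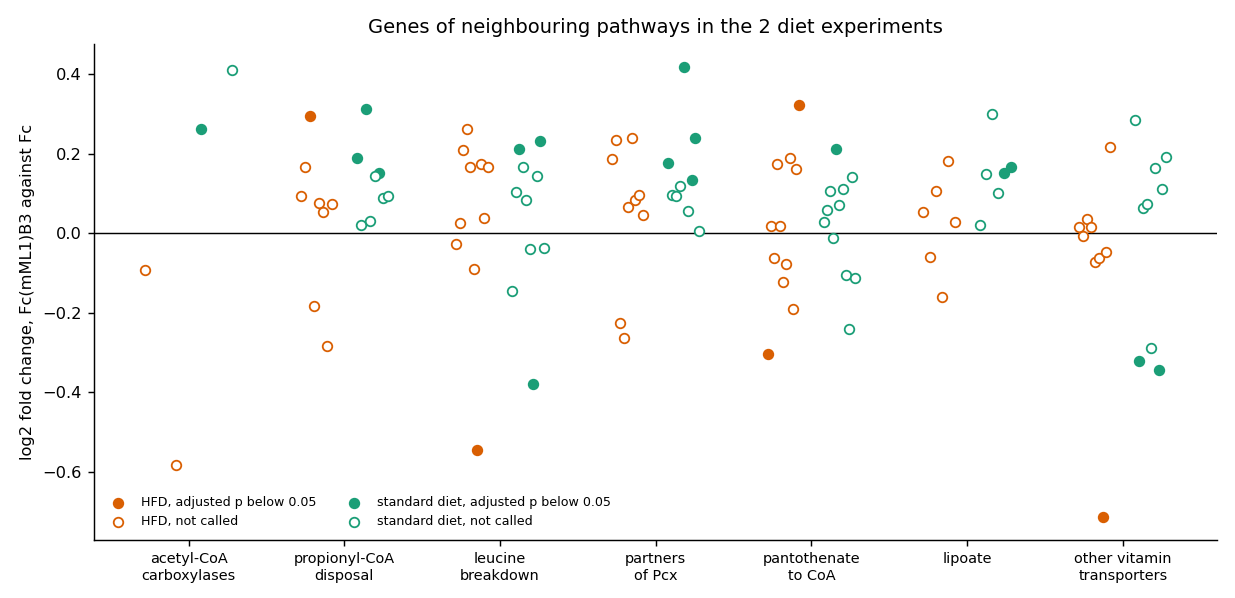
Log2 fold changes of Fc(mML1)B3 against Fc for each tested gene (points) of 7 lists, under the HFD (orange) and the standard diet (green). Filled points have an adjusted p below 0.05. Slc23a2, at -0.71, is the lowest filled point of the HFD, and Got1, at 0.42, the highest of the standard diet.

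Markers of liver cell types were counted in the treatment comparisons first. Under the HFD, 1 of 7 hepatocyte markers was called higher, 2 of 3 neutrophil markers and 1 of 5 T and B cell markers were called lower, and edgeR called 0 of 7 stellate and myofibroblast, 6 macrophage, 5 endothelial and 5 cholangiocyte markers, of which 0, 3, 1 and 1 had an unadjusted p under 0.05. Under the standard diet, 2 of 7 hepatocyte markers were called higher, 1 of 7 stellate and myofibroblast and 1 of 5 cholangiocyte markers were called lower, and edgeR called 0 of 6 macrophage, 5 endothelial, 5 T and B cell and 3 neutrophil markers, of which 2, 0, 1 and 0 had an unadjusted p under 0.05. The summed neutrophil markers ranged from 4.96 to 54.3 CPM in HFD Fc mice and from 4.92 to 11.2 CPM in HFD Fc(mML1)B3 mice, and the summed T and B cell markers from 7.15 to 15.9 CPM and from 4.76 to 12.4 CPM. The summed hepatocyte markers had medians of 101460 and 117595 CPM in these groups and of 120961 and 120652 CPM in the standard diet groups. No marker list summed to 0 in any mouse. Their part in the differences of Slc5a6 and Btd was not tested.

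The genes whose levels varied most like Slc5a6 were ranked over the 36 libraries after subtracting group means. They came from 9894 genes with a mean of at least 5 CPM, of which the members and Atraid were left out of the ranking. The values are correlations across libraries that share depth and RNA quality and are given as a description. The highest Pearson r was that of Tef, a PAR bZIP transcription factor (0.75, Spearman 0.71), followed by Gpr146 (0.70, Spearman 0.70), Gprc5c (0.69, Spearman 0.70), Slc22a5, the carnitine transporter (0.69, Spearman 0.66), and Clmn (0.67, Spearman 0.67). The lowest were those of Fundc1 (-0.64, Spearman -0.60), Rbm12b2 (-0.62, Spearman -0.61) and Cxcl12 (-0.62, Spearman -0.58). For Tef, r was 0.65 without the 2 libraries farthest from the median of Slc5a6, 0.67 within the 20 HFD mice and 0.86 within the 16 standard diet mice.

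By group, Tef stood at 177 ± 21.7 CPM (n = 10, SD) in HFD Fc mice, 103 ± 18.1 CPM (n = 10, SD) in HFD Fc(mML1)B3 mice, 162 ± 28.9 CPM (n = 9, SD) in standard diet Fc mice and 220 ± 18.8 CPM (n = 7, SD) in standard diet Fc(mML1)B3 mice, so its group means were ordered between treatments as those of Slc5a6 in each diet. Slc22a5, by contrast, stood at 20.3 to 22.6 CPM in all 4 groups while it varied with Slc5a6 within them. No rank was computed for the members of the pathway. The r of the other members with Slc5a6 lay between 0.03 (Btd) and 0.36 (Mccc2). That of Hlcs was 0.58 within the HFD mice and -0.39 within the standard diet mice.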

How the data were processed

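Liver RNA of 36 mice was sequenced by the authors with a directional library kit as paired ends of 100 bases. Per the study's methods, reads were trimmed with fastp, depleted of rRNA reads with Bowtie2 2.4.5 and aligned to mm10 with STAR 2.7.10a. The deposited values are raw counts per gene made by the authors with featureCounts (Subread 2.0.3). The file headers show no strand option, so sense and antisense reads were added together, and each end of a fragment was counted: 67.95 to 74.36% of counts from 1 to 20 were even. Intervals and tests cover this doubled counting only through the spread between mice, and each library is 1 mouse.

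Here, groups were read from the sample titles, and 0 columns of other samples were left out. Each treatment and diet comparison was fitted on its own 2 groups with edgeR 4.0.16 (R 4.3.3): filterByExpr, TMM scaling, the quasi-likelihood F-test and Benjamini-Hochberg adjustment over all genes tested, with a call at adjusted p below 0.05. The difference between the experiments was fitted on all 36 libraries. SEs were derived from each fold change on the log2 scale and its F statistic. CPM were scaled by TMM over all libraries, and log2 CPM used a prior count of 2. Fits were tested on simulated data. Single members were also tested by permutation (scipy 1.17.1). DESeq2 1.42.0, limma 3.58.1, other scalings, no filter, 1 fit over 4 groups, runs of file numbers, a replicate block and leaving out each mouse were the alternatives.

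The members and lists were chosen with earlier results of these data known. Named were the 8 members, Atraid, Acaca, Acacb, list genes called in a treatment comparison, and the 5 highest and 3 lowest genes in likeness to Slc5a6. Pathway lists covered propionyl-CoA disposal, leucine breakdown, pantothenate to coenzyme A, lipoate, other water-soluble vitamin transporters and Pcx partners. Marker lists covered hepatocytes, stellate cells and myofibroblasts, macrophages, endothelial cells, cholangiocytes, T and B cells and neutrophils, of which Ly6g was not analysed here. Between replicates of a group, 147 pairs were compared and none agreed within sampling noise.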

Additional observations from a re-analysis of the deposited data

Results flagged for a closer look

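The response of Btd to Fc(mML1)B3 differed between the 2 experiments by -0.37 on the log2 scale, standard diet minus HFD, with an adjusted p of 0.0373 from edgeR. All 10 HFD Fc(mML1)B3 mice were above the Fc median, while 2 of 7 standard diet Fc(mML1)B3 mice were above that of their Fc group. For Slc5a6 the same difference was 2.06, with every HFD Fc(mML1)B3 mouse below the mean of its Fc group and every standard diet one above. That difference was not tested, because the HFD values chose the gene. Diet, schedule and duration cannot be told apart in either result. Among 36 sets of 1 gene in 1 group, no mouse lay far enough from the others to pass Dixon's test at the 95% level.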

How the results depend on the processing

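The number of members called, leaving out Slc5a6 where it chose the part described, was 1 under the HFD and became 0 with Fc(mML1)B3 mice 26 to 29 alone and 2 with library totals alone (Btd and Hlcs). Under the standard diet it was 1 and became 0 within the libraries numbered above 100. Between diets in Fc mice it was 2 and became 1 with library totals alone or upper-quartile scaling. In the difference between experiments it was 1 and became 0 with the replicate block. Slc5a6 under the HFD was -1.29 for mice 26 to 29 alone and between -1.65 and -1.29 over 9 alternatives. Under the standard diet Slc5a6 was 0.39 in the libraries numbered above 100 and passed in the other 7 of 8 alternatives. Of the other alternative values of these summary results, 68 were judged unchanged, by rules that differ between kinds of value. Numbers of members called had to stay near the reported number, whichever genes were called. Untested Slc5a6 values had to keep their sign and move by less than the smallest SD of a group. Most likeness values had to keep their sign. Only Slc5a6 under the standard diet was judged by its side of the threshold.

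The values that turned sign were uncalled both as reported and in the setting named. Atraid under the HFD was -0.021 with mice 30 to 35 alone and -0.0006631 with library totals. Under the standard diet, Btd was 0.009502 with limma-voom and 0.0101 with the block, Hlcs 0.17 in libraries above 100, and Mccc1 -0.0008667 with library totals and -0.003542 with limma-voom. Between diets in Fc mice, library totals and upper-quartile scaling gave Btd -0.055 and -0.071 and Mccc2 -0.017 and -0.033. In Fc(mML1)B3 mice Mccc2 was -0.003195 with limma-voom and -0.056 with upper-quartile scaling, and in the difference between experiments 0.024 with library totals. Acaca under the HFD was 0.037 with limma-voom and 0.0005776 with the block. The cause was not tested.

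Without each mouse in turn, the members called were 1 to 1 in both treatment comparisons, 2 to 3 between diets in Fc mice (3 without HFD Fc mouse 8, where Pccb was called lower) and 2 to 2 in Fc(mML1)B3 mice. Slc5a6 ranged from -1.57 to -1.45 and from 0.48 to 0.59 in the treatment comparisons. Ranges that crossed 0 were, under the standard diet, -0.036 to 0.0076 for Btd, -0.067 to 0.028 for Hlcs and -0.0037 to 0.064 for Mccc1. Between diets they were -0.023 to 0.075 for Btd and -0.079 to 0.017 for Hlcs in Fc mice and -0.033 to 0.046 for Mccc2 in Fc(mML1)B3 mice, and for Acaca under the HFD -0.16 to 0.030. Leaving out mice was not run for the difference between experiments.

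Mouse numbers did not pair the mice: same-numbered deviations correlated above 0.1 in 1 of 10 pairs under the HFD, 0 of 7 under the standard diet, and 1 of 9 and 2 of 7 between diets. The block left the treatment calls of Slc5a6 and Btd in place. Over all genes it called 1294 and 1296 in the 2 treatment comparisons, against 1972 and 2186 without it. One fit over all 4 groups called 3133 and 785, limma-voom 3039 under the HFD and 2026 against 1278 in the difference, mice 26 to 29 alone 705, and libraries above 100 942. The share of calls that were higher was 54.9% under the HFD, 44.6% with upper-quartile scaling and 27.3% with library totals. It went from 53.2% to 37.6% with library totals under the standard diet, from 48.7% to 34% and 34.5% with upper-quartile scaling and library totals between diets in Fc mice, from 49.9% to 36.2% with upper-quartile scaling in Fc(mML1)B3 mice, and from 51.4% to 65% with library totals in the difference. At 100 to 334 counts, Slc5a6 in HFD Fc(mML1)B3 mice was the thinnest value among the members.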
